A study of Mus musculus with 3 samples.

Results

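Mature sperm of CD1 mice held at least the testis share of 276 distinct small RNA sequences that have the length and first base of RNAs bound by MIWI, a PIWI protein of the testis. The members were chosen by their counts: 29 to 31 bases long, beginning with T, 100 or more testis reads, and a share of sperm reads at least equal to the share of testis reads. Sequences that matched tRNA, microRNA or ribosomal RNA with up to 1 substitution or a deletion of 1 to 3 bases were left out, which removed 45 tRNA and 23 microRNA sequences of 18184 and no ribosomal one. The members were 276 of the 18116 sequences that remained, or 1.52% of that pool, against 4182219 distinct sequences in the whole series. Since the counts of sperm and testis chose the members, every sperm over testis ratio of a member is a description and none was tested.

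The compared libraries were small RNAs of mature sperm released from the cauda epididymis, of adult testis and of adult uterus, all of CD1 mice, an outbred strain, with 1 library each and no genetic change or drug named in the labels. The sperm had been kept in a lysis buffer meant to remove somatic cells. No difference below has a replicate check, the labels do not give the number of animals behind a library, and every interval is a 95% interval that covers counting error alone, because PCR copies of a molecule are counted as separate reads. In whole-tissue RNA, fewer cells of a type and less RNA per cell cannot be told apart.

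PIWI proteins bind piRNAs, small RNAs of the germline that silence transposons and cleave messenger RNAs. In the mouse testis, MIWI appears at the pachytene stage of meiosis and carries piRNAs that are slightly longer than those of MILI, another PIWI protein. Such piRNAs are cut from long single-stranded precursor transcripts, mostly begin with uridine (T in these reads), and have their 3′ ends trimmed and methylated, so that a single start can yield several 3′ ends.

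The sequences printed here are members that lie in the exons of long non-coding RNA genes and whose genomic place is known from an exact match to a GENCODE M21 transcript (GRCm38). They are written 5′ to 3′ with the last 2 bases in capitals, because the results on 3′ ends turn on them. The number in each name is the member's rank by testis reads.
Gm5878 member 2: taccatagaagacgagtttggactgagcGA
Gm5878 member 18: tagaagacgagtttggactgagcgaaatTC
Gm5878 member 27: tagaagacgagtttggactgagcgaaaTT
Gm5878 member 107: tagtagtggtttcttcctgaatggtggGC
Gm5878 member 150: taccatagaagacgagtttggactgagCG
Gm21388 member 77: ttgattcgggtttaagaacatgggatggGC
Gm21388 member 92: tagaaaggaaaactgtggatgcagaagAC
Gm21388 member 129: tgacagaaagcgggaatcaggaactgtGG
1700009C05Rik member 14: ttatctctgtgatctaactgatgccgtgGC
D130017N08Rik member 33: ttggatgacctgaaactcacatggacagGC
Gm21269 member 144: tgcgatgtgttcagacctaaaaagagttGC
Gm49794 member 152: tattgattagatgaatatggtgatgtgGC
Members 2 and 150 of Gm5878 share a start and differ by 1 base at the 3′ end, and members 18 and 27 share another start 5 bases downstream. Of the 12 sequences shown, 6 end in guanine then cytosine (GC), against 13 of all 37 members with an exact transcript match (35.1%), and the 12 were picked after their values were seen.

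The sperm library was 15690722 reads deep, the testis library 23783785 and the uterus library 15876066, with reads of 18 to 44 bases. Reads of 29 to 31 bases made up 35.8% of the sperm library, 72.0% of the testis library and 0.421% of the uterus library. The microRNAs miR-34b-5p, miR-449a-5p and miR-202-5p were 3 of 4 listed for testis and germ cells. They summed to 5.67 reads per 1000000 (RPM) in sperm, 205 RPM in testis and 8.25 RPM in uterus, and miR-202-5p alone had 105 RPM in testis. Fragments of 7 of 7 spermatid messenger RNAs (Prm1, Prm2, Tnp1, Tnp2, Odf1, Smcp and Akap4) summed to 152 RPM in sperm, 1.56 RPM in testis and 0.189 RPM in uterus. The epithelial microRNAs miR-200c-3p and miR-141-3p, both listed for the epididymis, summed to 2333 RPM in sperm, 0.463 RPM in testis and 91.5 RPM in uterus. The stromal miR-199a-3p, 1 of 4 listed, had 23.96 RPM in sperm, 28.9 RPM in testis and 28885 RPM in uterus. The part of epididymal RNA in the sperm values was not tested.

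The pool as a whole was scarce in sperm. It took 3.64% of sperm reads and 46.3% of testis reads, and its median sperm over testis ratio of shares was 0.0127. No sperm read was found for 5743 of its sequences. The 276 members together took 1.17% of sperm reads (1.17 to 1.18%), 0.366% of testis reads (0.364 to 0.368%) and no uterus read. The member ratios ran between 1.002 and 119 with a median of 1.57. A ratio of 2 or more was reached by 101 members and one of 4 or more by 33. For 202 of the 276 members the counting interval of the ratio lay wholly above 1.

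**Figure D1:**
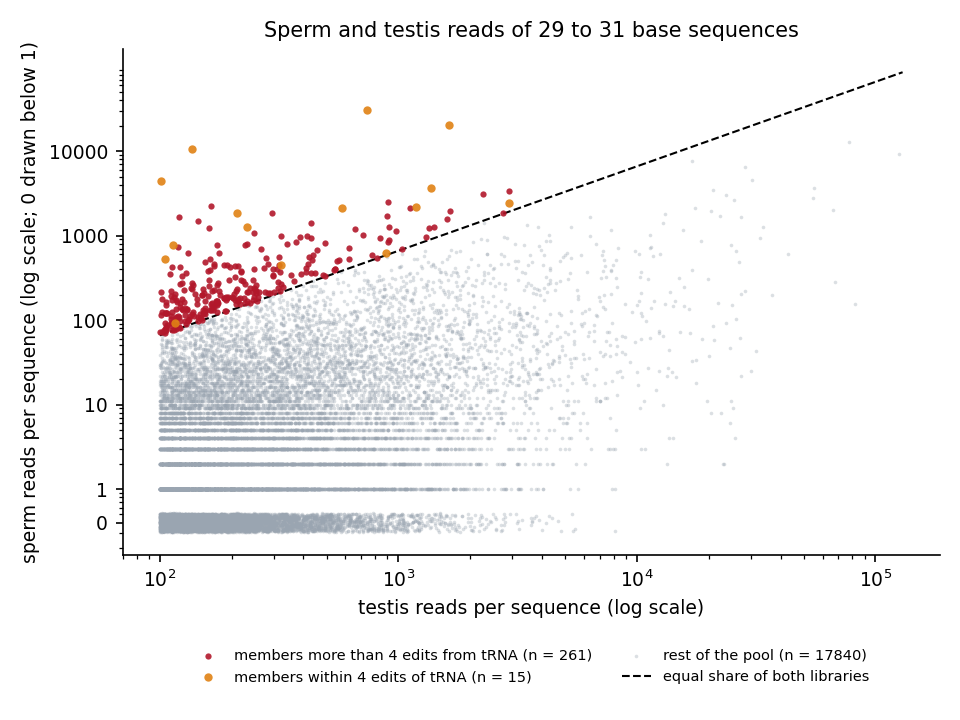
Sperm reads (vertical, log scale, sequences with 0 sperm reads drawn below 1) against testis reads (horizontal, log scale) of the 18116 pool sequences, 1 point each, with the line of equal shares of both libraries. The 261 members more than 4 edits from a listed tRNA and the 15 nearer ones lie on or above the line by the way they were chosen, and most of the 17840 other sequences lie far below it.

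At the threshold, the lowest member had 76 sperm and 115 testis reads, a ratio of 1.002 (0.740 to 1.35). The next members above it had 540 sperm and 816 testis reads, and 81 sperm and 122 testis reads. Just outside were pool sequences with 188 sperm and 285 testis reads, 85 sperm and 129 testis reads, and 288 sperm and 439 testis reads. Their ratios were 0.9999, 0.9988 and 0.994, and all 6 counting intervals covered 1, so the border between members and the rest is not resolved at this depth.

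Of the 276 members, 15 went against the label of MIWI-length piRNA. They lay within 4 edits of a listed tRNA, 13 of them within 2 edits, and all 15 began with TCCC, which no other member did. They held 81694 of the 184187 sperm reads of the members and 10629 of their 87032 testis reads, a summed ratio of 11.7 (11.4 to 11.9) against 2.03 (2.01 to 2.05) for the other 261 members. Of the 10 highest member ratios, 6 belonged to them, among them 10696 sperm against 136 testis reads, 4400 against 101, and 30477 against 736. These 15 members are therefore described apart, and what follows is about the 261 members more than 4 edits from a listed tRNA unless stated. The rest of the pool without its 48 sequences near tRNA held 17792 sequences.

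A further 3 of the 261 members were pieces of U2 small nuclear RNA, the spliceosomal RNA that pairs with the branch site of introns. They matched 7 annotated U2 genes in sense, among them Rnu2-10 on chromosome 11 (GRCm38 chr11:101658238-101658428, + strand), so that their reads cannot be given to a single gene. The 3 had 133, 171 and 215 sperm reads against 125, 113 and 101 testis reads, and no uterus read. No other pool sequence matched a small nuclear RNA. Their 2 starts, over all lengths, held 1993 sperm reads, 553 testis reads and 30 uterus reads.

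Among the 10 members with most testis reads, 7 were not near tRNA. Member 2, from Gm5878, had 3325 sperm reads (212 RPM) against 2902 testis reads (122 RPM), a ratio of 1.74 (1.65 to 1.83). Member 4 had 3146 sperm against 2269 testis reads, and member 5 had 1971 sperm against 1642 testis reads. These are moderate ratios, of 2.10 and 1.82. Members 3, 7, 8 and 10 had between 1216 and 1851 sperm reads against 1342 to 2740 testis reads, with ratios of 1.024 to 1.48. The most abundant pool sequence outside the members reached 125865 testis reads, so no member was among the leading piRNA-length sequences of testis.

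The 4 highest ratios away from tRNA came from members with 120 to 164 testis reads, below the median of 174 of the 261 members. Testis reads divide the ratio, so low testis counts favour high ratios. Member 157 had 2267 sperm against 164 testis reads, a ratio of 21.0, and member 224 had 1657 against 120, a ratio of 20.9. Member 186 had 1471 sperm against 145 testis reads, a ratio of 15.4, and member 163 had 1216 against 161, a ratio of 11.4. None of these 4 had an exact match to a reference transcript, and they are named only. Their last 2 bases were GT, GC, GT and AG in that order.

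The members were somewhat shorter than the rest of the pool. Lengths of 29, 30 and 31 bases were found for 37.9% (32.0 to 44.1%), 40.2% and 21.8% of the 261 members, against 29.7% (28.98 to 30.3%), 43.5% and 26.8% of the rest. The counting interval of the 29-base share of the members does not reach that of the rest, although sequences of a library are not replicates and no test was made. Both sets were most often 30 bases long.

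Members were richer in purines and poorer in cytosine than the rest of the pool. Adenine made up 33.8% and guanine 30.2% of their bases, against 30.5% and 25.6% in the rest of the pool, while cytosine made up 12.4% against 16.4% and thymine 23.6% against 27.5%. Without the first base and the last 2 bases the order stayed, with guanine at 30.1% against 26.6% and cytosine at 11.8% against 16.9%. At position 10 from the 5′ end, where piRNAs made by the ping-pong cycle of paired slicing tend to carry adenine, 38.3% of members had adenine (32.4 to 44.5%), against 33.0% of the rest (32.3 to 33.7%). That share at position 10 was close to the adenine share of the members' inner bases, 36.7%. A far higher share lay at position 5, where 173 of the 261 members had adenine (66.3%, 60.2 to 72.0%). Position 5 was picked after the data were seen, and its share in the rest of the pool is not given here.

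The 3′ ends of the members stood apart from those of the pool. GC was the last pair of bases in 98 of 261 members (37.5%, 31.7 to 43.7%), as in member 14 of 1700009C05Rik printed above, against 6.09% of the rest (5.75 to 6.45%). The second-last base was guanine in 74.7% of members, against 37.0% of the rest. Cytosine was the last base of 44.4% of members, against 19.5% of the rest, and thymine that of 22.6% of members, against 43.4% of the rest. The ending GGC, a guanine more, was found in 57 members (21.8%), against 2.69% of the rest. This comparison of ends was chosen after the data were seen.

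**Figure D2:**
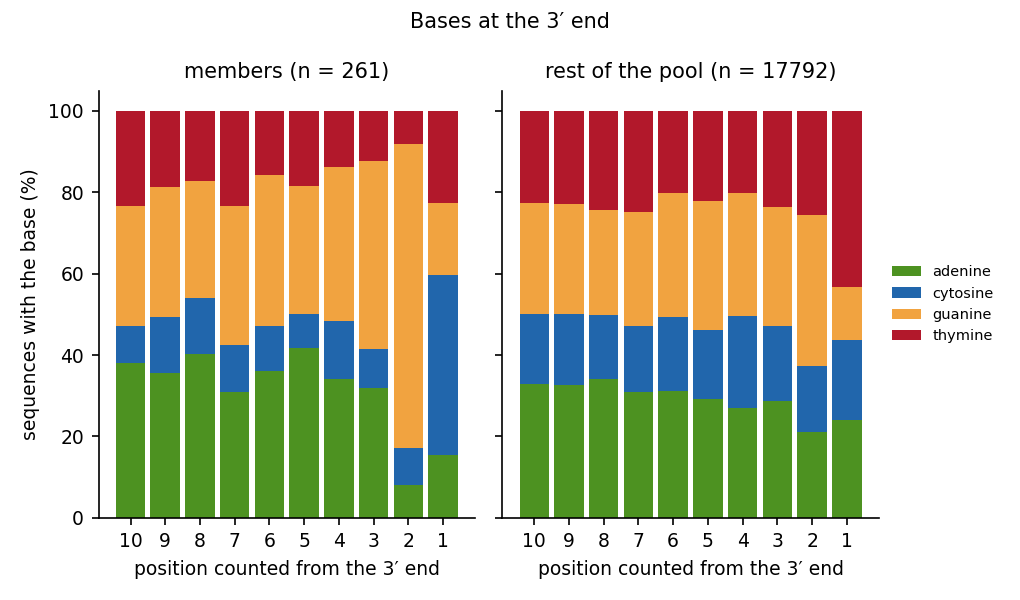
Percent of sequences with each base (vertical) at the last 10 positions, counted from the 3′ end (horizontal), for the 261 members more than 4 edits from tRNA and for the 17792 other pool sequences. At position 2 from the end 74.7% of members had guanine, against 37.0% of the rest, and at position 1 44.4% of members had cytosine, against 19.5%. Among other pool sequences with a sperm over testis ratio of 0.5 to 1, 73.2% had guanine at position 2 from the end.

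The share with a GC end held in each length class of the members. It was 44.4% of the 99 members of 29 bases, 32.4% of the 105 of 30 bases and 35.1% of the 57 of 31 bases, against 6.77%, 5.80% and 5.83% of the rest. With each start counted once it was 97 of 221 starts (43.9%), against 8.51% of 9556 starts in the rest. Among members with an exact transcript match it was 13 of 37 (35.1%, 20.2 to 52.5%), against 8.56% of 2091 such sequences of the rest.

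The GC end was not confined to members. It was found in 1.61% of the pool sequences without a sperm read, 2.89% of those with a ratio below 0.01, 5.92% of those of 0.01 to 0.1, 16.5% of those of 0.1 to 0.5 and 29.2% of those of 0.5 to 1. Above 1 it was 37.2%, 37.9% and 39.1% for ratios of 1 to 2, 2 to 4, and 4 or more, with overlapping intervals. A last thymine followed the opposite order over the first of these bins, at 51.2% without a sperm read, 45.8% below 0.01, 40.7% at 0.01 to 0.1 and 32.7% at 0.1 to 0.5.

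**Figure D3:**
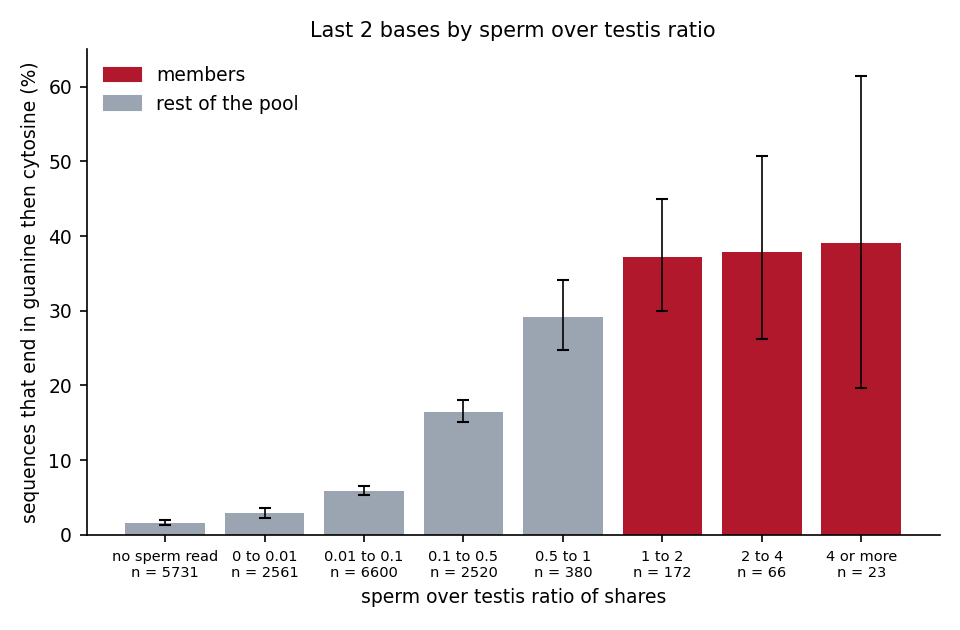
Percent of pool sequences that end in guanine then cytosine (vertical, bars start at 0, whiskers are exact 95% binomial intervals for counting error only) by sperm over testis ratio of shares (horizontal), without sequences within 4 edits of tRNA. The share was 1.61% without sperm reads and 29.2% just below a ratio of 1, and 37.2% to 39.1% in the 3 bins of members.

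The whole sperm library had more GC ends as well. The reads counted had 29 to 31 bases, lay more than 4 edits from a listed tRNA and matched no microRNA or ribosomal RNA. Of such reads beginning with T, 21.1% ended in GC in sperm, against 6.88% in testis and 4.31% in uterus. Among reads beginning with another base the shares were 18.9% in sperm, 6.14% in testis and 8.63% in uterus. Over distinct sequences that begin with T they were 13.9% in sperm, 5.13% in testis and 6.55% in uterus. Whether the way the sperm library was made has a part in these ends was not tested.

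Within a start the same order appeared. A start here is a set of reads that share their first 20 bases. Compared were 621 starts of the pool with both a GC-ended sequence and another one whose ratios were not tied. The GC-ended one had the higher sperm over testis ratio in 544 (87.6%) and the lower in 77. The GC-ended one was higher in 491 (87.5%) of the 561 starts with no member and in 53 (88.3%) of the 60 with a member. Starts with no member are themselves set by the ratios, so this count is a description too. The order did not hold in every start. In the start of members 8, 16, 70 and 179, member 8 ended in GC and had a ratio of 1.36. Member 16 of that start ended in CA and had a ratio of 2.12. A start with 3 members, 61, 79 and 99, is an exception at another length. Its 28-base form ended in GC and had 551 sperm against 3741 testis reads, a ratio of 0.223. Member 99 of the same start, 30 bases long and ending in AA, had 796 sperm against 233 testis reads.

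The 261 members came from 221 starts, and most starts gave a single member. Only 29 starts had 2 or more members, and they held 69 members (26.4%), against 71.7% of the rest of the pool that shared a start with another sequence of the rest. The size of a set bears on such a share, since a larger set holds more possible partners. The start with most members had 4, numbers 8, 16, 70 and 179, with 1269, 1276, 337 and 101 sperm reads against 1413, 913, 297 and 150 testis reads. Other leading starts held 3 members each. Members 3, 19 and 112 had 1851, 845 and 169 sperm reads against 2740, 905 and 212 testis reads. Members 15, 165 and 175 had 1147, 300 and 209 sperm reads against 978, 161 and 153 testis reads. The near-tRNA members included a start with 5, numbers 21, 30, 115, 237 and 266.

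Some member starts also lay close together. In 16 pairs of member starts, the reads of the later start overlapped the earlier one by 15 or more bases, with offsets of 1 to 9 bases. These pairs joined 29 of the 221 starts and 39 members into 14 clusters, so most starts lay apart. The same count for the rest of the pool is not given here. The cluster with most starts, in 1700029M20Rik, had 3 starts and 4 members, and a cluster of 2 starts in Gm5878 had 5 members.

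Summed over all read lengths, the member starts were closer to equal shares than the members. Of the 221 starts, 98 (44.3%) had a ratio of 1 or more and the median was 0.922. The ratios of reads outside the pool were not used to choose the members. Such reads were of other lengths, had under 100 testis reads, or matched tRNA, microRNA or ribosomal RNA. The testis minimum thus also decided which reads fell outside, so they are not an independent check. For example, the start of members 72 and 238 had a 30-base form outside the pool with 537 sperm against 88 testis reads. For the 194 member starts with 100 or more such testis reads, the median ratio of those reads was 0.467 and 48 (24.7%) reached 1, against a median of 0.0338 and 67 of 7624 (0.879%) for starts with no member. Both come from the same 2 libraries, so the comparison has no replicate.

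**Figure D4:**
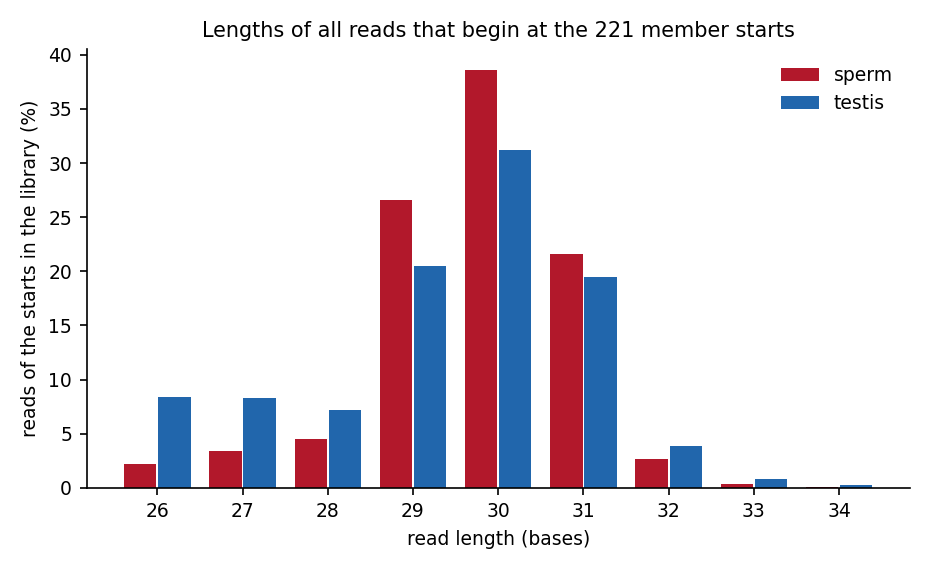
Percent of reads of the 221 member starts (vertical) by read length in bases (horizontal), between 26 and 34 bases, in sperm and in testis. At 30 bases lay 38.6% of sperm reads and 31.2% of testis reads, and at 26 bases 2.19% of sperm reads and 8.41% of testis reads, where the choice of members of 29 to 31 bases with high sperm reads has a part in the shape.

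Short forms of the member starts were less common in sperm. Reads of 26, 27 and 28 bases made up 2.19%, 3.41% and 4.54% of sperm reads, against 8.41%, 8.26% and 7.22% of testis reads. Per start the mean length in sperm minus that in testis had a median of 0.0346 bases over 219 starts and ran between -1.93 and 3.18, with 116 starts longer in sperm and 103 shorter, so the summed difference did not hold start by start.

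Exact matches to reference transcripts placed 37 of the 261 members (14.2%, 10.2 to 19.0%), against 11.8% of the rest (11.3 to 12.2%), intervals that overlap. Of these, 29 lay in sense and 8 only in antisense, and 21 members lay in exons of long intergenic non-coding RNAs (8.05%, 5.05 to 12.0%), against 5.85% of the rest. Messenger RNAs of protein-coding genes were matched in sense by 4 members (1.53%), against 2.53% of the rest, and processed pseudogenes in antisense by 6 (2.30%), against 1.51%. No member lay in the promoter windows of RefSeq genes on GRCm38, 250 bases before to 50 after a start, against 0.467% of the rest. The other 224 members had no exact match, and introns and sequence between genes were not searched here.

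Gm5878, a long non-coding RNA gene (chr6:85111416-85126125, - strand), held 5 members, all in its exon 3. Member 2 (chr6:85112883-85112912) and member 150 (chr6:85112884-85112912) shared a start, with 3325 and 434 sperm reads against 2902 and 169 testis reads. Member 18 (chr6:85112878-85112907) had 2495 sperm against 909 testis reads, a ratio of 4.16 (3.85 to 4.49), and member 27 (chr6:85112879-85112907) had 1201 sperm against 656 testis reads. Shorter forms of the start of members 18 and 27 were below the share of testis, with ratios of 0.607 at 26 bases, 0.577 at 27 bases and 0.552 at 28 bases, although the form of 25 bases had a ratio of 2.16. Member 107 (chr6:85113177-85113205), which ends in GC, had 382 sperm against 219 testis reads. The other 82 pool sequences of the gene held 1098 sperm against 46133 testis reads, a ratio of 0.0361 (0.0340 to 0.0383), and 26 of them had no sperm read.

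Gm21388 (chr3:34826669-34879283, + strand), another long non-coding RNA gene, also held 5 members, all in exon 4. Member 77 (chr3:34875080-34875109) had 215 sperm against 275 testis reads, member 92 (chr3:34874524-34874552) had 298 against 247, and member 129 (chr3:34876767-34876795) had 188 against 190. Members 170 and 176, whose starts lie 7 bases apart, had 168 and 133 sperm reads against 154 and 152 testis reads. The 54 other pool sequences of the gene had a ratio of 0.0500 (0.0467 to 0.0534).

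In the other genes outside U2 with 2 or more members, the summed ratio of the remaining pool sequences was also below 0.1, while members and others differ in ratio by the way members were chosen. Gm2762 on chromosome 13 gave members 67 and 81, with 406 and 188 sperm reads against 309 and 258 testis reads, while its 31 other pool sequences had a ratio of 0.0209. 1700029M20Rik on chromosome 4 gave members 80 and 221, with 215 and 266 sperm reads against 260 and 122 testis reads, and a ratio of 0.0797 for 44 others. Gm21269 on chromosome 7 gave members 144 and 231, with 263 and 84 sperm reads against 173 and 117 testis reads. Members were 1.20% of its 167 pool sequences, below the 1.52% of the whole pool. In the other genes of this paragraph they were 2.74 to 6.06%. Those genes, with 33 to 73 pool sequences each, were taken because they held 2 or more members. A share above 1.52% was thus fixed by the choice and says nothing about enrichment. The 165 other sequences of Gm21269 had 2671 sperm against 134140 testis reads, a ratio of 0.0302. In the coding exon 4 of 1700006A11Rik on chromosome 3, members 38 and 97 of 1 start had 346 and 215 sperm reads against 481 and 233 testis reads, and 68 others had a ratio of 0.0311. On chromosome 10, the overlapping processed pseudogenes Gm47365 and Gm47366 were matched in antisense by members 104 and 195, and the processed pseudogene Gm48450 by members 210 and 235. Members 104 and 235 had 181 and 172 sperm reads against 225 and 117 testis reads. Members 195 and 210, with 277 and 140 sperm reads against 136 and 127 testis reads, matched several places on that chromosome, so that their reads cannot be given to a single gene.

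**Figure D5:**
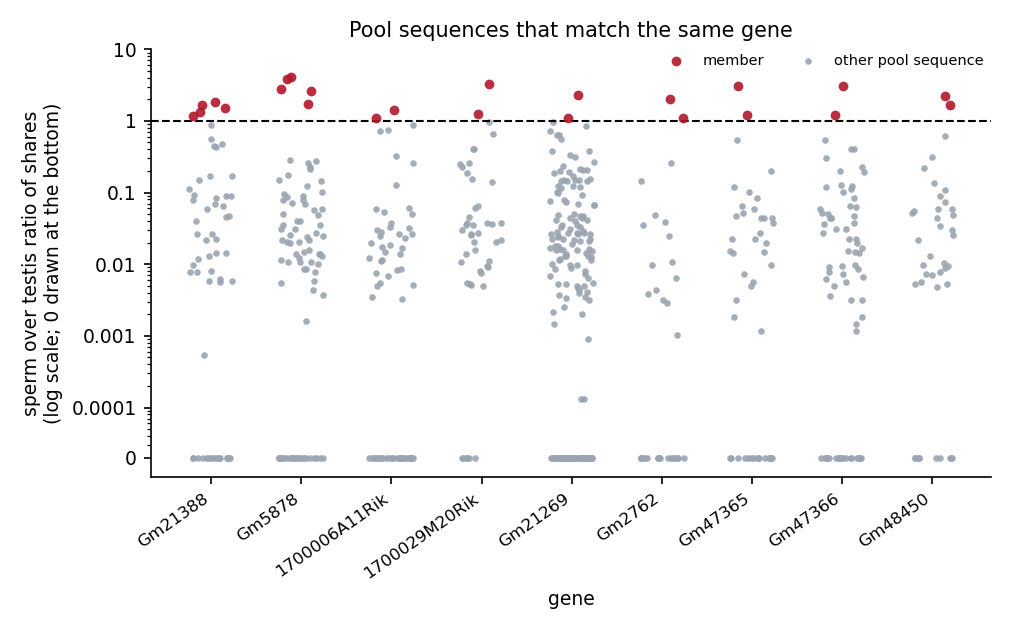
Sperm over testis ratio of shares (vertical, log scale, sequences without sperm reads drawn at the bottom) of every pool sequence that matches a gene exactly, for the 9 genes outside U2 with 2 or more members (horizontal), with the line at a ratio of 1. In Gm5878 the 5 members lie above the line and the median of the 82 others is 0.0134.

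Some ends did not follow the transcript. For 5 members the transcript matched only with 1 substitution, and in all 5 it lay at the last base, which was thymine in the read. Member 11, with 950 sperm against 1306 testis reads, was of this kind and otherwise equalled member 2 of Gm5878. The other 4 lay in Gm49794, 1700029M20Rik (2 members) and Arhgap20. Among the rest of the pool 426 of 522 such sequences (81.6%) had the substitution at the last base, and 418 of these had thymine there.

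The uterus, which had no part in choosing the members, gave 0 reads for all 276 members, which allows up to 0.189 RPM for each. In the rest of the pool 3 of 17840 sequences had uterus reads, with 122, 29 and 1. Over all read lengths, the only member starts more than 4 edits from tRNA with uterus reads were the 2 U2 starts, with 14 and 16 reads, and the other 219 had none. Of the 7 near-tRNA starts, 6 had uterus reads, 91 in sum.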

How the data were processed

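Small RNAs of 1 sperm, 1 testis and 1 uterus library were used. The deposited tables hold distinct read sequences with raw counts, which the authors did not normalize as far as the values show. Per the submitters' processing notes the build was mm9; no trimming or mapping tool is named there. Per the labels' protocols, adapters were ligated to both ends before RT-PCR. The sperm and testis tables each had 1 line without a sequence, which was left out.

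Shares are counts over all reads of a library. Intervals are exact at 95%: Clopper-Pearson for shares, and conditional binomial for ratios. A count of 0 was taken as at most 3 counts. With 1 library per group no test was made. Matching used GENCODE M21 transcripts (GRCm38, not converted to mm9), RefSeq microRNA hairpins and promoter windows, and tRNA sequences written from general knowledge (69 with the mitochondrial ones), which could not be checked against a genome. Members within 4 edits of a tRNA were set apart (edlib 1.3.9.post1). A start is the first 20 bases.

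Named sequences are the 10 members with most testis reads, the 10 with the highest ratio, those at the threshold, those of genes with 2 or more members and those of the 5 starts with most members; the others named, such as members 14, 33, 61, 79, 99 and 152, were picked after their values were seen; the printed ones were chosen after their values were seen from those with 1 exact place. Members and marker lists were chosen with earlier results of these data known. Alternatives were other denominators, TMM factors of edgeR 4.0.16, count minimums, match rules and a ratio of 2. Matching and the ratio rule were tested on simulated data. The software was R 4.3.3 and Python 3.11.15 (matplotlib 3.10.9, numba 0.67.0, scipy 1.17.1, numpy 2.4.6).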

Additional observations from a re-analysis of the deposited data

How the results depend on the processing

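The number of members depended on the denominator and the thresholds. With reads of 26 to 31 bases left after the matches as denominator there were 2054 members with 2.53% of sperm reads, of which 42.0% shared a start and 24.3% ended in GC. With edgeR's TMM factors over the pool there were 5598 members with 3.35% of sperm reads, 28.4% guanine, 52.8% in shared starts and 14.97% with a GC end. A testis minimum of 50 reads gave 567 members with 1.58% of sperm reads, a minimum of 200 gave 123 with 0.853%, and a ratio of 2 gave 101, also with 0.853%. Removing only exact matches left 299 members with 10.9% of sperm reads, and removing up to 3 edits left 263 with 0.684%, which follows from the tRNA-like sequences each rule keeps. The other 52 values moved by less than their counting interval or, for counts of members, by less than 1.5 times. Among them were the share of members with 30 bases, gene matches and uterus counts under all alternatives run. The share of members with 29 bases, on which the length difference rests, was not followed under the alternatives. Comparisons of GC ends and of each start counted once were chosen after seeing the data. No paired analysis was possible because each group has 1 library and leaving out a replicate was not possible either. The mapping to introns and to sequence between genes was not run. Depth limits members near the threshold: for 202 of 276 the counting interval lay above a ratio of 1.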
